A study of Mus musculus with 10 samples.

Results

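Antigen receptor loci hold the gene segments from which B cells and T cells assemble their receptors. Igh and Igk encode the heavy chain and the kappa light chain of antibodies, Trb encodes the T cell receptor beta chain, and the nested Tra/Trd locus encodes the alpha and delta chains. A variable (V), in some loci a diversity (D), and a joining (J) segment are cut at recombination signals and joined in the DNA of each developing lymphocyte, while other cells of the body keep the unrearranged germline segments. A recombination signal has a heptamer, a spacer and a nonamer, and the constant (C) segments stand downstream. CpG methylation of unrearranged segments is in general high in cells that do not use them, and it is lower at promoters and enhancers in use.

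The members described here were 539 overlapping windows, each 1000 bp long and starting every 500 bp, that lay within 4 intervals of the mouse genome mm10 (GRCm38) and had at least 20 CpG calls in every mouse. They were 539 of 421759 windows of the series with that depth, and 624 windows of the intervals were deposited. Igh (chr12:113250000-116010000) had 193 members in 87 separate regions, Igk (chr6:67550000-70730000) had 122 in 50, Trb (chr6:40890000-41560000) had 31 in 12, and Tra/Trd (chr14:52420000-54230000) had 193 in 64. The DNA came from whole lungs of 10 female BALB/c mice aged 8 weeks, and SureSelect Methyl-seq was used, a capture of selected regions followed by bisulfite conversion of unmethylated cytosines. The groups were 3 saline-treated mice, 3 mice given ovalbumin (OVA; 50 µg at sensitization and 25 µg at the intranasal challenge), and 4 mice that had the same OVA schedule and 200 mg/kg of an oral extract of *Descurainia sophia* seeds (DSE, labelled Herb). The OVA and DSE groups together are called the 7 OVA-exposed mice. The DNA came from all cell types of the lung, and the proportions of cell types and the methylation within a cell type cannot be told apart.

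Summed over all windows of the series, each mouse had between 306656737 and 410836272 CpG calls. The windows overlap, so a call can be counted more than once in these sums. Of each 1000000 calls summed over windows with at least 20 calls in every mouse, the 4 loci took 680.7 to 689.1 in saline mice. They took 586.8 to 627.8 in OVA mice and 732.2 to 819.5 in DSE mice. These ranges did not overlap, nor did they in any of the 4 loci taken alone, so DSE mice had the deepest and OVA mice the shallowest cover of these loci for their total. A methylation level is the percent of a window's CpG calls that were methylated.

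The capture reached only a part of the annotated segments, and in each locus more member windows lay over no annotated gene than over V segments. Member windows covered 41 of 194 annotated V segments of Igh, 7 of 176 of Igk, 7 of 35 of Trb and 38 of 136 of Tra/Trd. Among J segments, Trbj1-4 to Trbj1-7 (4 of 14 in Trb) and Traj42, Traj41, Traj15 and Traj14 (4 of 62 in Tra/Trd) were covered, and none of 4 in Igh or 5 in Igk. Igkc, the kappa constant segment, was the 1 constant segment covered, and no D segment was. CpGs were sparse, with a median of 5 per window in Igh, 7 in Igk, 7 in Trb and 9 in Tra/Trd against 13 over all windows. The heptamer CACAGTG, searched on both strands, stood in 51.3% of Igh, 27.0% of Igk, 32.3% of Trb and 40.4% of Tra/Trd windows, beside 25.2% of all windows of the same length. Such a match is a description of the letters and need not be a recombination signal.

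The windows on which the group comparison turns are shown by the 300 bases of each that hold the most CpGs, on the plus strand of mm10, with CpGs in capitals. The set shown has a window past the 3′ end of the alpha constant segment Trac, 4 windows over or beside V or J segments of T cell receptor and kappa loci that were lower in OVA-exposed mice, and a window at the 5′ side of Ighv1-55 that was higher in DSE mice.
Past Trac, chr14:54227444-54227743: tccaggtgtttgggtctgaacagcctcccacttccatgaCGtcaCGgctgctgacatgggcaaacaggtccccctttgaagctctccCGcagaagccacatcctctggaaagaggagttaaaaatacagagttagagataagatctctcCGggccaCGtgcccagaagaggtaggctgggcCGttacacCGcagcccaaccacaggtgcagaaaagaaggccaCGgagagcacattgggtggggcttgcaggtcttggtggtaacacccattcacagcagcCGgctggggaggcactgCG
Traj15, chr14:54204320-54204619: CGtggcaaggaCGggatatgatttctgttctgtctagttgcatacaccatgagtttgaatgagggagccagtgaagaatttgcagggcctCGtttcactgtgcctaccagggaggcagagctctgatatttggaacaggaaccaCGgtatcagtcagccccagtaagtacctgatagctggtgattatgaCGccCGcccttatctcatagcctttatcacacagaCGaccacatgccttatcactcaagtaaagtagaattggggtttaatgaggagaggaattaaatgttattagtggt
Trav13d-4, chr14:53073004-53073303: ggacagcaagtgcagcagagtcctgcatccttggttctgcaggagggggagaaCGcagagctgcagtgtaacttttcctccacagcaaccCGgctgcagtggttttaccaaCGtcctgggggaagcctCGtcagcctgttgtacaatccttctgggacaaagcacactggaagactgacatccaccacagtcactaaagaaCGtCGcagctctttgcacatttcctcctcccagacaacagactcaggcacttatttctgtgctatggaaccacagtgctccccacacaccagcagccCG
Beside Trbv31, chr6:41558991-41559290: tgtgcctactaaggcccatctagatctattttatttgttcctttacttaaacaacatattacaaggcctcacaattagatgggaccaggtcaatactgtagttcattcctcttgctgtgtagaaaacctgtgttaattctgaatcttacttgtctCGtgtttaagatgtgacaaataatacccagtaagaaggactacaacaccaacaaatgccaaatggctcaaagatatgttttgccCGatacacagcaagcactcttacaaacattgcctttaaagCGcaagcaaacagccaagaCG
Igkv10-95, chr6:68680164-68680463: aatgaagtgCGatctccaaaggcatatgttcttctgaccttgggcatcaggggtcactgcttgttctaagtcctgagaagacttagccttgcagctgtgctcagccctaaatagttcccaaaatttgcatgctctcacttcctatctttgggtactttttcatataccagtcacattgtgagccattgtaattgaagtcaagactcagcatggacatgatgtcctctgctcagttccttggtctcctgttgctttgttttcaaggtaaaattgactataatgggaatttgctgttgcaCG
Upstream of Ighv1-55, chr12:115208811-115209110: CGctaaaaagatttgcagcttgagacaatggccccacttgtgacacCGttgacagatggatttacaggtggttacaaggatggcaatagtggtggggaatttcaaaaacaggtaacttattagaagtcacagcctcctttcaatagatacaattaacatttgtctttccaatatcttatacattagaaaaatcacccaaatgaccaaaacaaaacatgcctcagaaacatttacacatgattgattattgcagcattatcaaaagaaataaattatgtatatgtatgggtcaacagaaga

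The stretches differed in CpG content. The one past Trac held 10 of the 18 CpGs of its window at 57.3% GC, whereas those at Igkv10-95 and upstream of Ighv1-55, which starts 220 bases from the segment, held 2 CpGs each at 43.3% and 35.3% GC. The stretch past Trac also had the palindrome TGACGTCA, the cyclic AMP response element, with its CpG in the middle. That motif was in 2 of 193 Tra/Trd windows, which overlap each other, in none of the windows of the other loci and in 1.1% of all windows. Next to the segments, the recombination signals of Trav13d-4 and Traj15 each held 1 CpG in the spacer, and they are given from the segment outwards with the heptamer and nonamer in capitals (Trav13d-4 on the plus strand, Traj15 on the minus strand). The 9 bases in the nonamer's place differ from the consensus at 1 position in Trav13d-4 and at 4 positions in Traj15, so a nonamer was not recognised there by letters for Traj15.
Trav13d-4 signal, chr14:53073275-53073313: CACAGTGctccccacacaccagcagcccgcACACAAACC
Traj15 signal, chr14:54204394-54204421: CACAGTGaaacgaggccctGCAAATTCT

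An exact heptamer within 20 bases of the joining end was found for 31 of the 38 covered Tra/Trd V segments, and 9 of these signals held a CpG. In Igh, 23 of 41 covered V segments had such a heptamer and 1 signal held a CpG.

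The 4 loci stood at different levels in every mouse. Mean methylation over windows and the 10 mice was 65.7% ± 0.661 (SD, n = 10) in Igk, 50.3% ± 1.06 in Trb, 48.3% ± 0.965 in Igh and 42.4% ± 1.16 in Tra/Trd, beside 52% ± 0.68 over all windows. Igk was above each of the others in 10 of 10 mice, by 15.4 to 23.3 percentage points on average. Igh and Tra/Trd differed by 5.89 points in 10 of 10 mice. With calls pooled over windows that do not overlap, which gives deeply covered windows more weight, Igk was 7.48 to 10.9 points above the others and Igh 2.9 points above Tra/Trd. Igh and Trb are neighbours in this order. Igh minus Trb was -2.02 points, with the same sign in 9 of 10 mice, and with at least 50 calls per window it was -0.135 points, which was not larger than the spread.

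Intermediate levels were the common state. Windows between 20% and 80% made up 75.6% of Igh, 56.6% of Igk, 77.4% of Trb and 67.9% of Tra/Trd, beside 56% of all windows. Igk held the most highly methylated windows, with 44 of 122 (36.1%) above 80%, whereas 8.29% of Tra/Trd, 9.68% of Trb and 10.4% of Igh windows were that high. Tra/Trd held the most windows below 20%, 46 of 193 (23.8%), next to 21.2% of all windows. CpG-poor windows were less methylated in Igh and Igk, with a Spearman rho of 0.345 and 0.388 between CpG number and methylation across windows, whereas over all windows it was -0.332. Across 31 Trb and 193 Tra/Trd windows it was 0.0993 and 0.0464. Neighbouring windows share calls, so these are descriptions across windows.

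**Figure D1:**
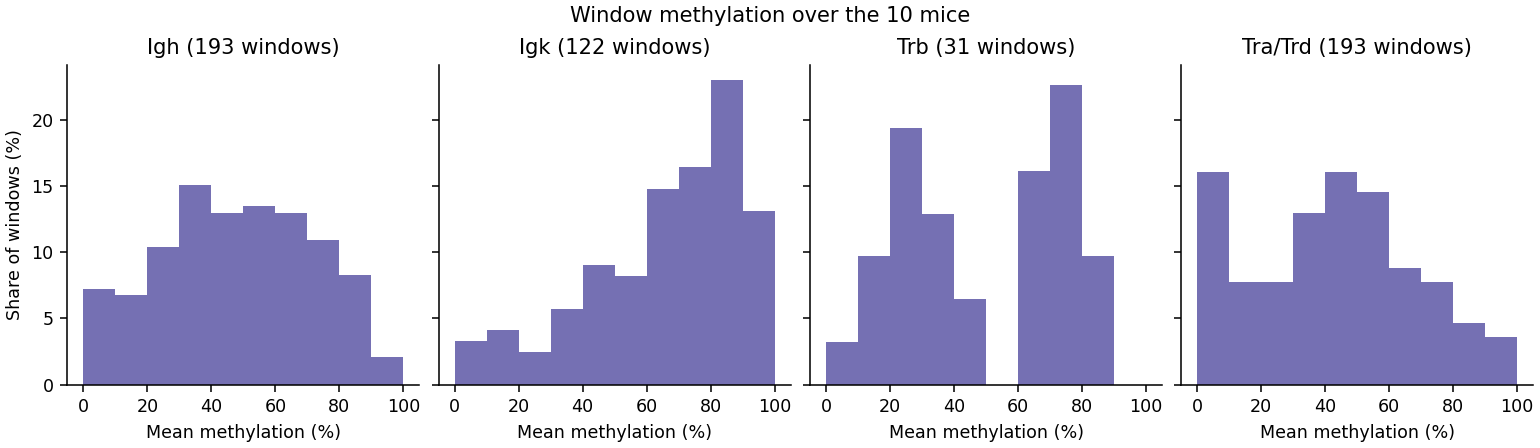
Share of member windows (y axis, percent) by mean methylation over the 10 mice (x axis, percent, in steps of 10) in each locus. Igk has its weight at the high end, with 36.1% of windows above 80%, and Tra/Trd reaches furthest to the low end, with 23.8% below 20%.

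Segment windows and their surroundings differed in opposite ways between loci. Windows over V, J or C segments were 1.93 points higher than the other windows of the locus in Igh, 6.57 higher in Igk and 6.42 higher in Trb, whereas in Tra/Trd the difference was -8.05 points, each in 10 of 10 mice. In Igk this difference became -1.25 points with at least 50 calls per window, and in Trb it became -3.16 points with every deposited window, so of the settings tried these changed the direction, and none did so in Igh or Tra/Trd. V segment windows of Tra/Trd stood at 38.6% ± 0.599 in saline mice (n = 3) and those of Igh at 48.3% ± 0.586.

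Single V families ranged from almost free of methylation to highly methylated. The 4 windows of the Trav10 family averaged 5.26% ± 2.53 in saline mice, the 8 of Trav9 21.8% ± 1.53, the 21 of Trav13 45.7% ± 0.923 and the 6 of Trav12 51.2% ± 0.7. In the antibody loci, the 22 windows of Ighv5 averaged 57.4% ± 0.369, the 10 of Ighv3 60.3% ± 2.5, and the 6 of Igkv9 82.4% ± 1.32. Members of a family share sequence, and reads of near-identical V copies may have been placed at either copy, so family members are not independent measurements.

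The windows at the extremes were not equally steady between mice. Ighv3-3 was methylated at 95.1% to 100% in the 10 mice (chr12:114196501-114197500) and a window near Trav3-2 at 94.7% to 97.2% (chr14:53577501-53578500). At the low end, a window 7062 bp from Igkj1, the kappa J segment nearest to it, was at 2.93% to 11.7% (chr6:70714501-70715500). The highest Trb window, between segments, had from 76% to 95.7% with 23 to 201 calls per mouse (chr6:41500001-41501000). No methylated call was found in any mouse in 5 windows, which were 2 over Ighv3-7, 2 beside Trav8-2 and 1 over Gm30275, annotated as an antisense gene. That is 0.928% of the members, beside 0.0152% of all windows (64 of 421759). The Ighv3-7 windows had 476 calls in all, which allows a level of up to 0.63%, and those beside Trav8-2 had 502, which allows up to 0.598% (counting error only). The reference genome comes from another inbred strain than BALB/c, and the part of strain differences in these values was not tested.

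Tra/Trd was the locus that was lower in all OVA-exposed mice. Its mean methylation was 43.4%, 44.4% and 43.8% in saline mice, 40.6%, 41.3% and 42.3% in OVA mice, and 41.9%, 41.9%, 42.3% and 42.5% in DSE mice. All 7 OVA-exposed mice were below all 3 saline mice, with a mean difference of -2.03 points. The group means were 43.9% ± 0.516 for saline (n = 3), 41.4% ± 0.853 for OVA (n = 3) and 42.2% ± 0.29 for DSE mice (n = 4). DSE mice were 0.807 points above OVA mice, with overlapping ranges. That difference was 2.13 points, without overlap, with pooled calls, 0.403 without OVA replicate 1 and 1.25 without OVA replicate 3. Over all windows the OVA-exposed mice were 1.16 points higher than saline mice, so relative to all windows the difference of Tra/Trd was -3.19 points.

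The means of the other loci did not share this. Igh averaged 47.4%, 46.2% and 47.6% in saline mice, 48.4%, 49.4% and 49% in OVA mice, and 49.1%, 48.5%, 48.6% and 49% in DSE mice. All OVA-exposed mice were thus above saline mice, by 1.76 points (1.15 with pooled calls), of which 0.598 points remained relative to all windows. Igk differed by -0.227 points and Trb by 0.0029 points between OVA-exposed and saline mice, with overlapping ranges in both, and both directions changed with the choice of windows. Relative to all windows, these differences were -1.39 and -1.16 points.

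**Figure D2:**
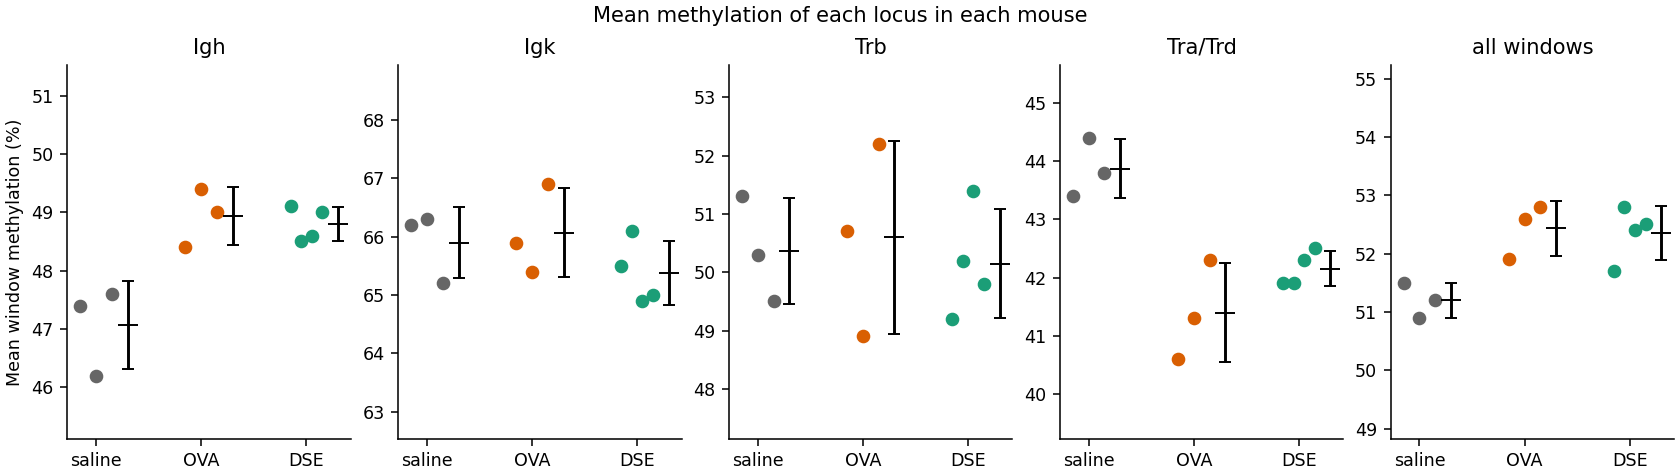
Mean methylation (y axis, percent, a different range of the same length in each panel) of each locus and of all windows in each mouse, with 1 point per mouse in the saline, OVA and DSE groups and the group mean ± SD in black. Tra/Trd lies lower in all OVA-exposed mice (40.6% to 42.5%) than in saline mice (43.4% to 44.4%), whereas all windows and Igh lie higher.

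Within Tra/Trd the lower level was found over V and J segments and over other genes more than between genes. The 5 J segment windows went from 59.2% ± 1.72 in saline to 51.1% ± 2.1 in OVA and 52.3% ± 3.74 in DSE mice. The 78 V segment windows went from 38.6% ± 0.599 to 35.2% ± 0.933 and 36.7% ± 0.889. OVA-exposed minus saline was -4.22 points in the 18 windows over other annotated genes and -0.862 points in the 92 windows without a gene. In 3 parts of equal length along the interval it was -2.04, -2.16 and -1.94 points. In direction, 121 of 193 windows (62.7%) were lower in OVA-exposed mice, beside 37.2% of all windows.

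Among V families with at least 4 windows, Trav13 had both the most windows in Tra/Trd and the most negative mean difference there, -5.63 points. Its 21 windows averaged 45.7% ± 0.923 in saline, 39.4% ± 1.42 in OVA and 40.6% ± 1.22 in DSE mice, and 16 of the 21 were lower in OVA-exposed mice. The 7 windows of Trav3 differed by -4.08 points, with 5 of the 7 lower and overlapping mice. Trav8 windows differed by -1.32 points, Trav12 by 0.0751 and Trav9 by 2.08 points. In the other loci, V segment windows differed by -3.21 points in Igk, with 11 of 13 lower, by -1.31 in Trb and by 1.66 in Igh. The 6 windows of Igkv10 differed by -6.84 points, with all 6 lower, and the 6 of Igkv9 by 0.101 points. Lower V segment windows were thus not particular to Tra/Trd. These groupings by class, position and family were chosen after values were seen and are given as descriptions.

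To ask which windows differed, methylated and unmethylated calls were compared by a likelihood ratio test of a logistic model, and a differentially methylated region (DMR) had to pass an adjusted p of 0.01 with 10 or more points between the groups. In OVA vs. saline, Tra/Trd had 2 hypermethylated and 15 hypomethylated DMRs of 192 windows tested (1.04% and 7.81%). Over all windows 4.83% were hypermethylated and 2.6% hypomethylated. Igh had 9 and 2 of 190, Igk 0 and 2 of 117, and Trb 1 and 2 of 31. In DSE vs. saline, Tra/Trd had 5 hypermethylated and 11 hypomethylated DMRs, Igh 10 and 8, Igk 1 and 2, and Trb 1 and 2, where 5.02% and 3.09% of all windows were called. Both comparisons use the same saline mice. The test takes calls as independent, and calls of 1 mouse or molecule are not, so its p-values are too small. An F test of the same model that scales for overdispersion called 0 windows of the 4 loci in each of the 3 comparisons. By that test, 57 (OVA vs. saline), 53 (DSE vs. OVA) and 98 (DSE vs. saline) had an unadjusted p under 0.05. These 3 counts are given without a share over all windows, so they do not place the loci against the series.

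Mice can be counted in place of calls. All 7 OVA-exposed mice were below all saline mice in 27 Tra/Trd windows (14%) and above in 4 (2.07%). Over all windows these shares were 4.72% and 9.53%. Igh had 1 window below and 16 above (0.518% and 8.29%), Igk 2 and 5, and Trb 2 and 0. By limma on M-values (the log2 of methylated over unmethylated calls), with OVA and DSE mice against saline mice and an adjusted p under 0.05, 11 Tra/Trd windows were lower and 2 higher (5.7% and 1.04%). All windows had 3.21% lower and 5.51% higher. Igh had 1 lower and 3 higher, and Igk and Trb had 2 lower each and 0 higher. This limma contrast was chosen after the data had been seen, and overlapping windows share calls. The 11 lower windows of Tra/Trd were 3 over Olfr1509, 2 over Trav13d-4, 2 over Trav13-3, and 1 each over B230359F08Rik, Gm43434, Traj15 and past Trac.

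**Figure D3:**
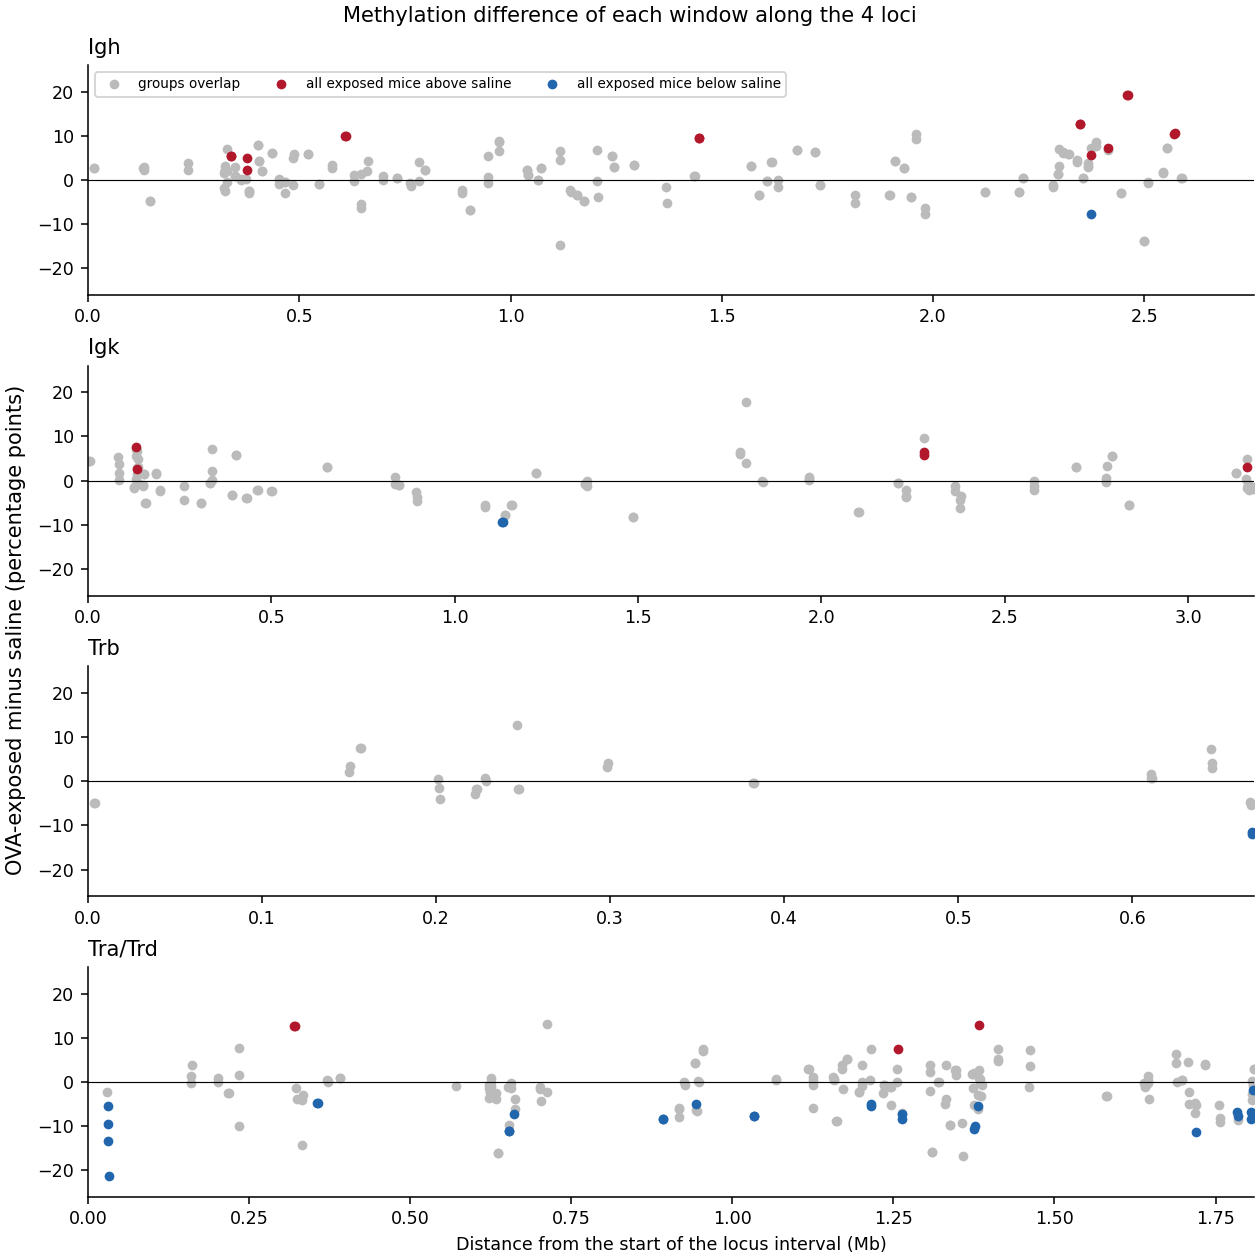
Difference between OVA-exposed and saline means (y axis, percentage points) of each member window by its distance from the start of the locus interval (x axis, Mb), coloured where all 7 OVA-exposed mice lie above (red) or below (blue) all 3 saline mice. Tra/Trd has 27 blue and 4 red windows along its whole length, and Igh has 1 blue and 16 red.

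Trav13d-4 is a V segment of the alpha locus, and its sequence is among those printed above. Its window chr14:53072501-53073500 (10 CpGs, 1314 to 1861 calls per mouse) was methylated at 48.1%, 49.8% and 48.7% in saline mice, 41.4%, 36.0% and 32.3% in OVA mice, and 41.1%, 37.8%, 37.0% and 38.7% in DSE mice. Every OVA-exposed mouse was below every saline mouse, and the limma adjusted p was 0.0204. The overlapping window over the same segment, with an adjusted p of 0.021, fell from 51.0%, 53.8% and 51.8% to between 34.9% and 44.1% in exposed mice.

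Traj15 is a J segment of the alpha locus. Its window chr14:54204001-54205000 (15 CpGs, 911 to 1622 calls) had 57.8%, 62.5% and 58.1% in saline mice, 48.6%, 50.1% and 49.3% in OVA mice, and 52.2%, 53.9%, 55.7% and 51.8% in DSE mice. The 3 groups did not overlap, and DSE mice lay between the others. The limma adjusted p was 0.0362 for OVA-exposed vs. saline, and 0.623 for DSE vs. OVA. The adjoining window over Traj14 went from 59.6% ± 4.7 in saline to 47.9% ± 3.41 in OVA and 53.1% ± 2.34 in DSE mice, with a limma adjusted p of 0.0591. Traj41, further 5′, went from 53.8% ± 2.51 to 47.1% ± 7.1 and 44.4% ± 4.01, with an adjusted p of 0.152.

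The window past Trac was almost free of methylation in every group. It lies 2795 bp from the constant segment (chr14:54227001-54228000, 18 CpGs, 993 to 1334 calls), on the side where the alpha locus is known to have its enhancer. Saline mice had 5.14%, 4.76% and 3.42%, OVA mice 2.99%, 3.22% and 2.04%, and DSE mice 2.1%, 3.05%, 2.64% and 2.33%. All OVA-exposed mice were lower, with a mean difference of -1.82 points, and the limma adjusted p was 0.0419.

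Other V windows of Tra/Trd moved the same way. Trav13-3, annotated as a pseudogene, was at 73.1%, 75% and 60.7% in saline mice, 61.9%, 55.9% and 56.9% in OVA mice and 48.6% to 52.1% in DSE mice (chr14:53729001-53730000, 51 to 119 calls, limma adjusted p 0.0207). One OVA mouse, at 61.9%, overlapped the lowest saline mouse. B230359F08Rik, annotated as a V segment, was at 65.2%, 67.1% and 63.0% in saline mice and at 50.3% to 58.4% in OVA-exposed mice, without overlap (chr14:53795001-53796000, adjusted p 0.0255).

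The 2 windows that were higher by limma lie near Trav17 and Trav18. The first, chr14:53803001-53804000 had 30.9%, 25% and 21.8% in saline mice, 40.0%, 34.4% and 45.0% in OVA mice and 36.6% to 40.3% in DSE mice (32 to 216 calls, adjusted p 0.0195). The window near Trav18 differed by 7.45 points with some overlap of the mice (adjusted p 0.0458). A window near Trav7d-3 was higher too, at 35.4% ± 8.43, 50% ± 6.22 and 46.7% ± 3.69 in saline, OVA and DSE mice. Saline mice did not overlap with the OVA-exposed mice there, but the limma adjusted p was 0.0693.

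Olfr1509, an olfactory receptor gene inside the interval, was also lower. Its window chr14:52451001-52452000 had 58.2%, 63.9% and 57.7% in saline mice, 48.2%, 44.5% and 42.2% in OVA mice and 44.8% to 50.7% in DSE mice (17 CpGs, 1812 to 2409 calls, limma adjusted p 0.0137). No exposed mouse reached the saline range. Called windows of the interval were thus not limited to antigen receptor segments. Without the windows over genes that are no receptor segments, exposed minus saline in the mean of Tra/Trd was -1.81 points.

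**Figure D4:**
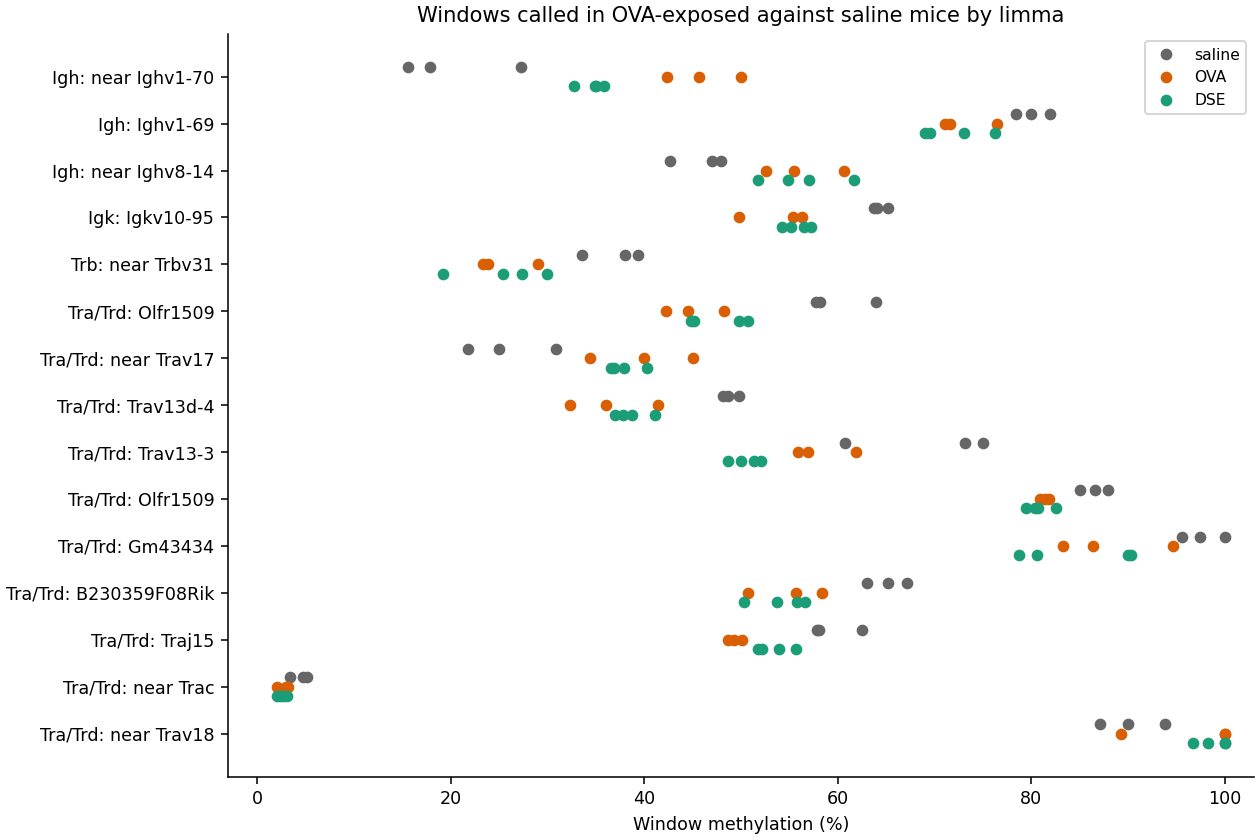
Methylation (x axis, percent) in each mouse of windows called by limma between OVA-exposed and saline mice, 1 row per window and 1 point per mouse, with windows that overlap shown once. In the rows of Tra/Trd, the saline points lie to the right of the OVA and DSE points except near Trav17, where they lie to the left, and in Trav13-3 and near Trav18, where the groups overlap.

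In the other T cell receptor locus, limma called 1 place between OVA-exposed and saline mice. Trbv31 is the V segment that lies downstream of the Trb constant segments, in inverse orientation. A window beside it (chr6:41558501-41559500, 7 CpGs, 117 to 347 calls) had 33.6%, 38.0% and 39.4% in saline mice, 23.9%, 23.3% and 29.0% in OVA mice and 27.4%, 25.4%, 30% and 19.2% in DSE mice. Saline mice did not overlap with the OVA-exposed mice, whereas OVA and DSE mice overlapped. The limma adjusted p for OVA-exposed vs. saline was 0.0351 (0.0382 for the overlapping window over the segment). The Trb J windows Trbj1-5 to Trbj1-7 went the other way, from 76.9% ± 1.48 in saline to 81.3% ± 2.78 in OVA and 80.7% ± 3.8 in DSE mice, with an adjusted p of 0.248.

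In the antibody loci, limma called fewer windows between OVA-exposed and saline mice than in Tra/Trd. For DMRs in DSE vs. saline and in DSE vs. OVA, Igh had more than Tra/Trd. Igkv10-95, a kappa V segment, had 63.7%, 64.0% and 65.2% in saline mice, 55.4%, 49.8% and 56.3% in OVA mice and 56.5%, 57.2%, 55.2% and 54.2% in DSE mice (chr6:68679501-68680500, 381 to 582 calls, limma adjusted p 0.0228). All exposed mice were lower. Igkc was at 71.2% ± 3.0 in saline, 70.2% ± 2.11 in OVA and 68.9% ± 1.26 in DSE mice, with an adjusted p of 0.612.

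The Igh windows past the limma threshold in OVA-exposed vs. saline mice lie in the part of the locus that is distal to the constant segments. A window 17179 bp from Ighv1-70 had 27.3%, 17.9% and 15.6% in saline mice, 50%, 42.3% and 45.7% in OVA mice and 35.8%, 35%, 32.7% and 34.9% in DSE mice (chr12:115709501-115710500, adjusted p 0.00735). The 3 groups did not overlap, but only 26 to 53 calls per mouse stand behind each value. Ighv1-69 fell from 81.9%, 80% and 78.4% to between 69.0% and 76.4% (250 to 663 calls, adjusted p 0.0442). A window near Ighv8-14 rose from 45.9% ± 2.79 to 56.2% ± 4.09 in OVA and 56.3% ± 4.21 in DSE mice (adjusted p 0.0481).

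Promoter windows of leukocyte genes were lower in the same mice as Tra/Trd. In 19 promoter windows of the 4 leukocyte genes Ptprc, Coro1a, Laptm5 and Vav1, the mean was 63.4% to 63.9% in saline, 50.8% to 55.4% in OVA and 50.2% to 54.7% in DSE mice. By the same limma contrast, 10 of the 19 windows were lower, beside 3.21% of all windows. Ptprc, which encodes the common leukocyte antigen, differed by -18 points. For T cells, 7 of 12 markers had windows, and their 12 windows had a mean of 70.3% to 74.8% in saline, 65.3% to 67.1% in OVA and 64.9% to 69.6% in DSE mice, with 2 of 12 lower by limma. Lck, a kinase at the T cell receptor, was at 50.9% ± 1.92, 38.5% ± 3.22 and 39.1% ± 3.76. For B cells, 4 of 8 markers had windows, and their 15 windows stood at 23.1% to 24.9%, 23.1% to 25.6% and 23.7% to 24.3%. The myeloid list (3 of 6 markers, 8 windows) had 46.2% to 52.4%, 43.4% to 48.1% and 39.3% to 44.8%, and the lung list (5 of 8 markers, 16 windows) 26.5% to 30%, 30.7% to 32.1% and 28.8% to 33.8%. Of the 16 lung list windows, 3 were higher by limma, beside 5.51% of all windows. The part of cell numbers in the Tra/Trd difference was not tested.

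**Figure D5:**
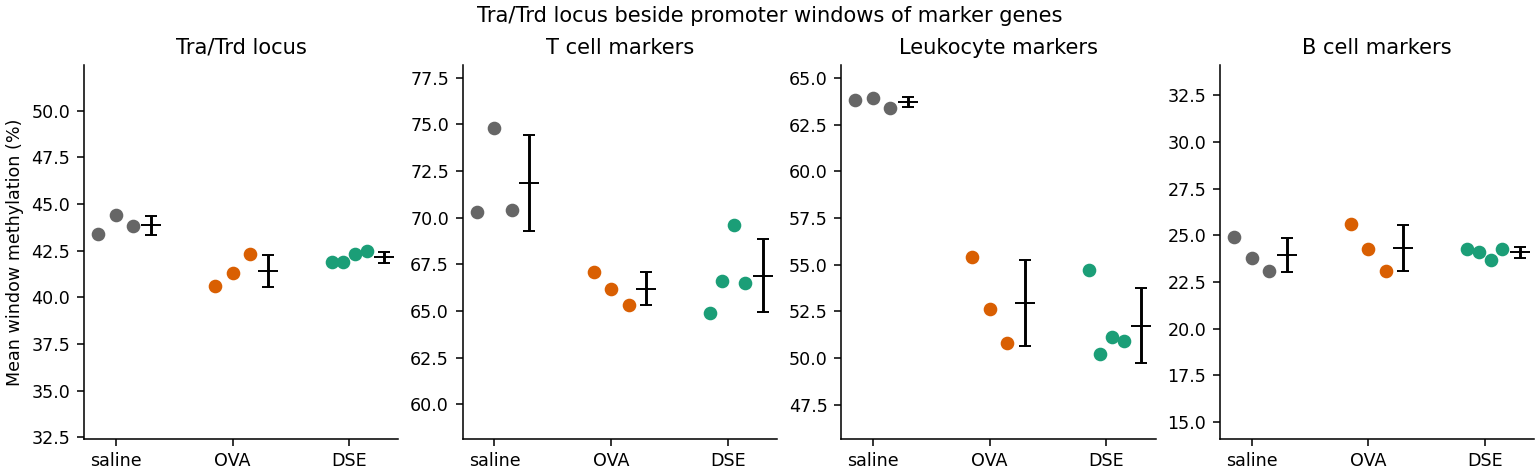
Mean methylation (y axis, percent, panels of equal length) of the Tra/Trd locus and of promoter windows of T cell, leukocyte and B cell marker genes in each mouse, with the group mean ± SD in black. Leukocyte and T cell markers lie lower in all OVA-exposed mice, as Tra/Trd does, and B cell markers overlap.

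Genes that act on the loci were read at their promoters. Of 10 genes of recombination and joining, 7 had promoter windows. Of their 32 windows, 0 were hypermethylated and 1 was hypomethylated in OVA vs. saline, and 1 and 2 were in DSE vs. saline (4.83% and 2.6%, and 5.02% and 3.09%, of all windows). Rag2, a subunit of the recombinase, stood at 44.6% ± 10.6 in saline, 33.5% ± 4.74 in OVA and 31.4% ± 3.34 in DSE mice, and both of its windows were hypomethylated in DSE vs. saline. The 23 windows of 5 of 6 genes of class switch and hypermutation stood at 15.8% to 18.6% in saline, 17.5% to 18.4% in OVA and 18.4% to 18.8% in DSE mice. The surrogate chains and receptor partners had 2 hypermethylated and 0 hypomethylated of 16 windows in OVA vs. saline, both hypermethylated ones at Vpreb3, and 1 and 0 in DSE vs. saline. The smaller receptor loci had 7 windows (Igl) and 9 windows (Trg), with overlapping group ranges of 48.6% to 52.1%, 48.4% to 59.7% and 46.4% to 54.1% in Igl and of 40.8% to 45.1%, 43.1% to 48.1% and 40.2% to 50.4% in Trg.

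Between DSE and OVA mice, the means of the loci had no common direction, at -0.103 points in Igh, -0.704 in Igk, -0.467 in Trb and 0.807 in Tra/Trd, and 18 windows were hypermethylated and 7 hypomethylated. With at least 50 calls in every mouse these were 10 and 7. With pooled calls, the differences of the means were -0.923 in Igh, 2.61 in Igk, -0.0228 in Trb and 2.13 in Tra/Trd. DSE and OVA mice did not overlap in Igk and Tra/Trd there, and the direction in Igk was reversed. In DSE vs. OVA, Igh had 10 hypermethylated and 4 hypomethylated DMRs, Tra/Trd 7 and 1, Igk 1 and 2, and Trb 0 and 0. Of all windows, 0.888% were hypermethylated and 0.698% hypomethylated, so Igh at 5.26% and 2.11% and Tra/Trd at 3.65% hypermethylated were above these shares. By limma, 2 of the 539 windows of the 4 loci had an adjusted p under 0.05, both in Igh, beside 1765 of 421759 over all windows. By that count the loci were not above the series. An unadjusted limma p under 0.05 was found in 84 of the 539 windows, beside 41647 of 421759 over all windows. These were 44 of 193 in Igh, 19 of 122 in Igk, 1 of 31 in Trb and 20 of 193 in Tra/Trd. The DSE libraries also had the most calls in the loci for their depth, and the part of that difference in the DMRs was not tested.

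A window at Ighv1-55 was among the 2 that limma called between DSE and OVA mice. The window chr12:115208501-115209500 (4 CpGs), of which 91 bases lie in the segment and the rest at its 5′ side, had 25.4%, 30.9% and 27.7% in saline mice, 20.9%, 23.4% and 30.7% in OVA mice, and 50.3%, 44.2%, 48.6% and 50.6% in DSE mice. DSE mice were above all others, whereas OVA and saline mice overlapped, with limma adjusted p-values of 0.0197 for DSE vs. OVA and 0.0115 for DSE vs. saline. The median depth was 139.0 calls in saline, 101 in OVA and 306.0 in DSE mice, so the window was covered more deeply where it was more methylated. A window of 2 CpGs that lies 11445 bp from Ighv8-12 also had its highest mean in DSE mice. It had 34.4% ± 13.7, 25.3% ± 6.24 and 56.2% ± 10.2 at a median of 45, 30 and 218 calls. DSE mice were above all OVA mice but overlapped with saline mice. The limma adjusted p was 0.116 for DSE vs. OVA and 0.0878 for DSE vs. saline.

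In Tra/Trd, the deeply covered window over Trav12-1 was at 39.3%, 42.0% and 46.8% in saline, 39.8%, 38.1% and 36.4% in OVA and 49.2%, 51.8%, 54.4% and 49.8% in DSE mice (chr14:53537501-53538500, 1810 to 3140 calls). All DSE mice were above all OVA and saline mice, and the limma adjusted p for DSE vs. OVA was 0.0661. In Igk, a window of 60 CpGs near Igkv4-79 was at 94.4% ± 0.452 in saline, 92.8% ± 1.49 in OVA and 81.4% ± 7.19 in DSE mice (chr6:69035501-69036500), with a limma adjusted p of 0.0168 for DSE vs. saline and 0.115 for DSE vs. OVA.

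Windows called in a pair of comparisons were counted next. Of the 21 windows hypomethylated in OVA vs. saline, 2 were hypermethylated in DSE vs. OVA, both in Tra/Trd, and of 12 hypermethylated windows none was hypomethylated in DSE vs. OVA. These are 9.52% and 0%, beside 4.67% and 3.78% of all windows called so, and the comparisons share the OVA mice. Trav3-4 was 1 of the 2, at 0.0%, 29.4% and 41.1% in saline mice, 0.0% in all 3 OVA mice and 23%, 10.3%, 30.6% and 36.0% in DSE mice (23 to 122 calls). Since 1 saline mouse was also at 0.0%, the saline and OVA mice overlapped. Overlapping windows share calls, so the 2 windows need not be separate places. By contrast, 10 of the 21 hypomethylated windows, 6 of them in Tra/Trd, were also hypomethylated in DSE vs. saline, and 4 of the 12 hypermethylated windows were also hypermethylated there. These are 47.6% and 33.3%, beside 69.4% and 59.2% over all windows, and both use the same saline mice.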

How the data were processed

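Lung DNA libraries of 10 mice made by Methyl-seq (saline, n = 3; OVA, n = 3; DSE, n = 4) were analysed. Per the labels' processing notes, the authors used cutadapt 1.10, Bismark 0.19.0, methylKit 1.0.0 and mm10, and the study's methods name other versions of these tools. The deposited counts are the CpG calls, methylated calls and unmethylated calls of each mouse in windows that are 1000 bp long and start every 500 bp, without normalization. Percentages were computed from them here.

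Windows needed at least 20 calls in every mouse and, for the DMRs, at least 2 CpGs. DMRs came from a likelihood ratio test of methylated calls in a logistic model that had no overdispersion term, adjusted by Benjamini-Hochberg over 420959 windows. limma 3.58.1 in R 4.3.3 was run on log2 ratios with a pseudocount of 1 over 421759 windows. The tests were run on simulated calls with known changes and counting error alone, without variation between mice. There the likelihood ratio test and limma found most changed windows and the F test found few. The mice of these data vary by more than counting error, so the simulation cannot rank the tests here. Levels of a locus, segment class, family or marker list are given without p-values, because the members and lists were chosen with earlier results of these data known.

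Windows named were the DMRs with the largest difference and no overlap of mice, for OVA against saline and for DSE against OVA, the lowest and highest windows, windows over J and C segments, DMRs in the same or opposite direction in a pair of comparisons, and those called by limma in OVA-exposed vs. saline mice, which was added after the data were seen. Segments came from the GENCODE annotation of GRCm38, and windows were assigned in the order C, J, D, V, other gene, none. Promoter windows lie within 1000 bp of a start site. Replicates of a group differed by more than counting error (mean chi-square per window 2.64 to 3.76). Locus means and limma took each mouse as 1 value, whereas the likelihood ratio test summed the calls of a group's mice.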

Additional observations from a re-analysis of the deposited data

How the results depend on the processing

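DMR counts were 33 (OVA vs. saline), 25 (DSE vs. OVA) and 40 (DSE vs. saline). limma on M-values, with the same 10 points, gave 9, 2 and 18 (10, 2 and 26 by its adjusted p alone), the F test 0, 0 and 0, windows that do not overlap 16, 14 and 21, and a threshold of 20 points 5, 8 and 5. The other settings kept them within 1.5 times. The replicate numbers do not pair the mice (correlations of the deviations of same-numbered mice -0.027 to 0.078), and a replicate block gave 34, 24 and 40. In DSE vs. OVA, hypermethylated and hypomethylated DMRs were 18 and 7, and 10 and 7 (at least 50 calls), 15 and 9 (replicate block), and 14 and 9 (without OVA replicate 1).

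Differences of locus means kept their direction in Tra/Trd in every comparison with saline. OVA-exposed minus saline with 1 mouse left out ranged from -2.28 to -1.77 points in Tra/Trd, 1.33 to 2.02 in Igh and -0.427 to 0.474 in Trb. With at least 50 calls per window, Trb was 0.0551 points in DSE vs. saline, Igh minus Trb was -0.135, and segments minus the rest were -1.25 in Igk. With every deposited window, Igk was 0.397 (DSE vs. saline) and 0.465 (OVA-exposed vs. saline), Trb -0.649 (OVA vs. saline) and -1.16 (OVA-exposed vs. saline), and segments minus the rest -3.16 in Trb. Pooled calls gave Igk -0.644 (OVA vs. saline), 2.61 (DSE vs. OVA), 1.97 (DSE vs. saline) and 0.848 (OVA-exposed vs. saline), Trb -0.774 (OVA vs. saline) and -0.787 (OVA-exposed vs. saline), and Igh minus Trb -0.463 (-6.98 with every deposited window, -5.54 without windows over other genes). Windows that do not overlap gave Trb 0.146 in DSE vs. saline. Relative to all windows, Igh was 0.00209 in DSE vs. OVA and 0.598 in OVA-exposed vs. saline, Igk -1.04 in OVA vs. saline, and Trb -0.949 and -1.16 in OVA vs. saline and OVA-exposed vs. saline. Without windows over other genes, an alternative chosen after seeing the data, Igh was 0.283 (DSE vs. OVA), Igk -0.173 (OVA vs. saline) and Trb -0.0142 (OVA-exposed vs. saline). With 1 mouse left out, DSE vs. OVA ranged from -0.368 to 0.124 in Igh and -1.32 to 0.338 in Trb, DSE vs. saline from -0.628 to 0.274 in Trb, and OVA vs. saline from -0.261 to 0.527 in Igk and -0.535 to 1.12 in Trb. The causes were not tested.

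The F statistic over 3 groups (variance between groups over variance within) of a locus mean was 12 in Igh and 1.1 in Igk. It became 6.49 (at least 50 calls) and 16.6 (pooled calls) in Igk, and 5.23 (every deposited window) and 1.08 (relative to all windows) in Igh. For the difference between Igh and Igk within a mouse it was 4.65, and 9.18 (at least 50 calls), 17.4 (pooled calls), 5.66 (without other genes) and 2.4 to 7.76 (1 mouse left out). For Trb minus Tra/Trd it was 4.33, and 4.52, 4.55 (every deposited window), 6.9 (pooled calls) and 2.5 to 8.64 (1 mouse left out). The sparse CpGs, windows with 20 to 50 calls and groups of 3 or 4 mice limit these values.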
